A study of Mus musculus with 48 samples.

Results

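The DMSO course compared HD-MEL cells with LD-MEL cells on 16 of the 48 two-colour cDNA arrays of the study. Its arrays were chosen by their labels, as those of cells kept in 1% DMSO for 6, 12, 24 or 36 h, with 4 arrays at each time. HD-MEL is a mouse erythroleukemia clone of the line T-3-Cl-2-0.fl that differentiates readily on induction, and LD-MEL is a clone that does so poorly. Every array carried RNA of both, taken at the same time in the same drug, so that each cDNA clone gave a ratio of HD to LD cells. The other 32 arrays followed the same cells at the same times in 3 mM HMBA or in 15 nM TSA. All cells were treated, and no untreated culture was analysed here. Each kind of cell was a single clone, and the 4 arrays of a time were technical arrays, per the labels.

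Murine erythroleukemia cells are erythroid precursors held at an immature stage by transformation with a retrovirus. DMSO is the classical agent that releases them: over the following days they make haemoglobin, build the membrane of the red cell and leave the cell cycle. HMBA (hexamethylene bisacetamide) is another chemical inducer, and TSA (trichostatin A) inhibits histone deacetylases. The files list cDNA clones by their library names alone, and none of these names was found in the gene table used here. No cDNA clone could therefore be given a gene, the globin and heme genes could not be looked up, and the erythroid identity of the cells was not checked against markers. The 4 clones named below are given by those names.

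The files listed 22171 cDNA clones in all and 19354 to 20581 on a single DMSO array. Median intensities of the arrays lay between 391.3 and 790.4 in the HD column and between 255.5 and 774.8 in the LD column, and their range was lowest at 36 h in both. A clone's value at a time is log2(HD/LD) after loess normalization within the array, averaged over arrays 1 and 2, over arrays 3 and 4, and then over both pairs, and 18494 clones had such a value in all 12 combinations of drug and time. A value of 1 is a level 2-fold higher in HD cells. The array pairs opposed each other: across clones, an array of one pair and an array of the other had correlations between -0.508 and -0.413 at 6 and 12 h and between -0.285 and -0.104 at 24 and 36 h. Arrays of the same pair had correlations between 0.492 and 0.732. The labels give HD cells the same dye on every array but turn the channel order on arrays 3 and 4, and the study's design speaks of dye swaps. The direction of the ratio, HD over LD, was taken from the file headers and is not settled. The counts of each comparison and the trends of the 4 named clones are therefore also given with arrays 3 and 4 turned.

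The first question was which transcripts HD and LD cells held at different levels while in DMSO. Few did by 2-fold, and more were counted at later times. With the same sign on all 4 arrays, HD cells were above LD cells by 2-fold or more in 1 clone at 6 h (0.00548% of the clones measured on all 4 arrays), 2 at 12 h (0.011%), 8 at 24 h (0.0446%) and 12 at 36 h (0.067%). They were below LD cells by as much in 4 (0.0219%), 9 (0.0496%), 11 (0.0613%) and 21 (0.117%) at these times. These counts carry no test, since each time rests on 1 pair of RNA extracts. The same sign on 4 arrays is also harder to reach where the array pairs oppose each other more. Across clones, the means of the 2 pairs had correlations of -0.59, -0.525, -0.25 and -0.327 in time order. The part of this in the growth of the counts was not tested.

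The clones on each side at 36 h were traced back to the earlier times. Of the 12 clones higher in HD cells at 36 h, none met the criterion at 6 or 12 h and 2 met it at 24 h. Their median log2(HD/LD) was 0.11 at 6 h, 0.27 at 12 h, 0.68 at 24 h and 1.19 at 36 h. Of the 21 clones lower in HD cells at 36 h, 4 were already so at 6 h, 9 at 12 h and 9 at 24 h. Their median was -0.75 at 6 h, -0.85 at 12 h, -0.97 at 24 h and -1.41 at 36 h, so as a group they started below 0. The 36 h medians are fixed by the choice of clones. These clones overlap with those described below for their change, since 9 of the 12 are among the 10 rising clones and 6 of the 21 among the 10 falling ones. Clones that met the criterion at all 4 times numbered 3, all lower in HD cells. With arrays 3 and 4 turned, the counts higher in HD cells were 40, 27, 34 and 3 in time order, and those lower were 112, 104, 154 and 32. The growth of the counts with time was thus seen only in the direction kept here.

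The second question was how the ratio changed between 6 and 36 h. Most clones moved little: 96.7% of those tested had a log2 ratio at 36 h within 0.5 of that at 6 h, and the 1st and 99th percentiles of the change were -0.57 and 0.55. A change of at least 2-fold, with no overlap between the 4 arrays at 36 h and the 4 at 6 h, was seen in 8 clones that were higher at 36 h (0.0451% of 17720 clones with all 8 arrays) and in 5 that were lower (0.0282%). Turning arrays 3 and 4 gave 17 (0.0959%) and 6 (0.0339%). With no minimum size, the arrays of both times did not overlap in 282 clones that were higher at 36 h (1.59%) and in 285 that were lower (1.61%), and in 471 (2.66%) and 535 (3.02%) with arrays 3 and 4 turned. Tested as a linear trend through the 4 times, in limma with Benjamini-Hochberg adjustment over 18494 clones, no clone rose (0%) and no clone fell (0%) at an adjusted p under 0.05. At an unadjusted p under 0.05 there were 414 clones in either direction (2.24%), fewer than such a threshold would let through on average with no trend. Turned, the same test called 0 higher and 2 lower (0.0108%), with 587 at an unadjusted p under 0.05 (3.17%). Both fits took the spread from all 12 conditions, those in HMBA and TSA included. A fit on the 4 DMSO conditions alone, with 2 residual degrees of freedom, called 2 clones higher and 0 lower. In the fit over 12 conditions, the 95% interval of a trend reached 0.47 to each side on the log2 scale in the median clone. A clone's change over 30 h was known to about that precision, with no adjustment for the number of clones. The p-values here measure the scatter of conditions about the trend, each condition being a single pair of RNA extracts. No culture was repeated within a condition, so the spread between cultures was not measured apart from that scatter. The spread between clones of cells is not covered.

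The 10 clones with the largest rise and the 10 with the largest fall, among those whose arrays at 36 and 6 h did not overlap, were followed further. They are called rising and falling for the sign of that change, which passed the test over all 12 conditions in none of them. The change chose them, and it is given as a description. The 10 rising clones changed by 0.97 to 1.36 on the log2 scale, and the next clone by 0.92. The 10 falling clones changed by -1.20 to -0.845, and the next by -0.837. No gap separates either group from the clones behind it. When arrays 3 and 4 were turned, the fitted trends of the 4 named clones were closer to 0, at 0.593 for H3123A01, 0.482 for H3123A02, 0.0196 for H4070E06 and -0.0828 for H4010F07. Turning sets the array pairs against each other, so the choice of clones whose times did not overlap largely fixes this.

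**Figure D1:**
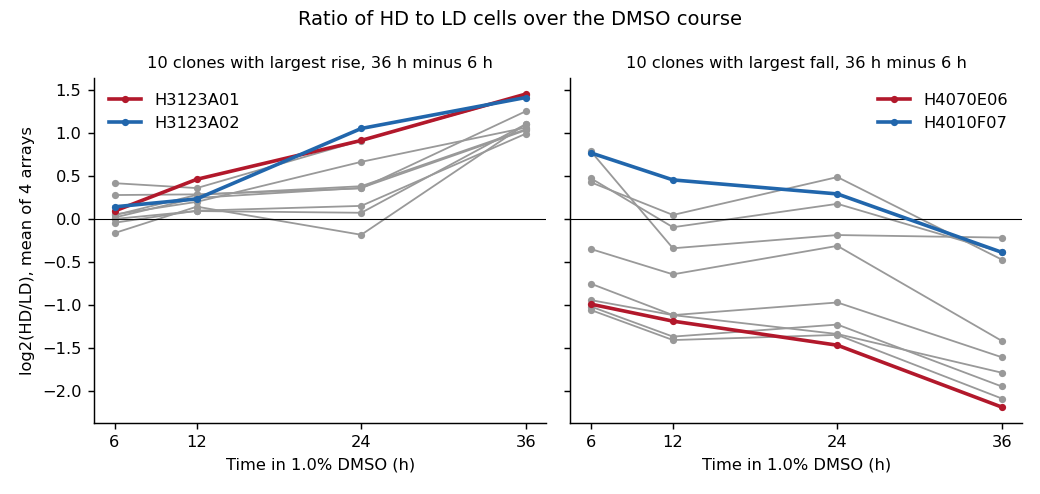
Log2(HD/LD), averaged over up to 4 arrays (3 for H4010F07 at 24 h), against hours in DMSO for the 10 clones with the largest rise (left) and the 10 with the largest fall (right), 1 line per clone, with the 4 named clones in colour. Rising clones started near 0 and ended between 0.989 and 1.45, while falling clones ended between -2.19 and -0.219 and 6 of the 10 were below 0 from the first time on.

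Among rising clones the largest change was that of H3123A01. On arrays 1 to 4 its log2(HD/LD) was 0.14, -0.27, -0.10 and 0.59 at 6 h, then 0.17, 0.20, 0.37 and 1.10 at 12 h, then 1.42, 1.22, 0.63 and 0.37 at 24 h, and 1.51, 1.94, 1.04 and 1.33 at 36 h. Every array at 36 h lay above every array at 6 h, while the arrays at 12 and 24 h overlapped each other. Its mean was 1.45 ± 0.38 at 36 h and 0.09 ± 0.37 at 6 h (SD, n = 4 technical arrays each), a difference of 1.36. The fitted trend was 1.32 over 30 h (95% interval 0.644 to 2.00), with an adjusted p of 0.9999 in limma.

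H3123A02 followed the same course. Its log2(HD/LD) on arrays 1 to 4 was 0.32, 0.60, 0.12 and -0.48 at 6 h, then 0.08, 0.20, 0.16 and 0.48 at 12 h, then 2.20, 1.53, 0.25 and 0.22 at 24 h, and 1.67, 2.19, 0.86 and 0.94 at 36 h. At 24 and 36 h arrays 1 and 2 stood above arrays 3 and 4, and all 4 arrays were above 0. The mean was 1.41 ± 0.63 at 36 h and 0.14 ± 0.46 at 6 h (SD, n = 4 each), and the fitted trend was 1.38 (0.681 to 2.08), with an adjusted p of 0.9999 in limma.

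The rising clones as a group were near even between the lines at first. Their median log2(HD/LD) was 0.05 at 6 h, 0.24 at 12 h, 0.37 at 24 h and 1.10 at 36 h, so the larger step came after 24 h. The ratio was higher than at the time before at each of the 3 steps in 7 of the 10, against 1.77% of all tested clones. The choice by a large rise favours such steps, so the 2 shares are not a test. By the number in their names, 9 of the 10 came from library plates 3121 to 3126. This span was set from the 9 clones themselves, so their number in it is a description. The plates held 528 other tested clones, of 18494 tested in all. These had a median change of 0.07, against 3.08e-05 over all clones. Whether these 9 clones carry cDNA of one transcript was not tested, since no sequence of the clones was given.

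Among falling clones H4070E06 changed most. Its log2(HD/LD) on arrays 1 to 4 was -0.86, -1.05, -1.01 and -1.05 at 6 h, then -1.20, -1.21, -1.19 and -1.14 at 12 h, then -1.52, -1.60, -1.24 and -1.53 at 24 h, and -2.03, -2.23, -2.30 and -2.22 at 36 h. The arrays of each time lay below those of the time before, with no overlap between times, and both array pairs showed the same course. The mean was -2.19 ± 0.12 at 36 h and -0.992 ± 0.092 at 6 h (SD, n = 4 each). The fitted trend was -1.16 (-1.71 to -0.614), with an adjusted p of 0.9999 in limma. Taken with arrays as units, which counts technical arrays as independent, its trend had an adjusted p of 0.00133 in limma with the replicate number as a block.

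H4010F07 took another course, from higher in HD cells to lower. Its log2(HD/LD) on arrays 1 to 4 was 0.48, 0.96, 0.35 and 1.27 at 6 h and 0.40, 0.63, -0.08 and 0.86 at 12 h. At 24 h it was 1.87 on array 1, -0.23 on array 2 and -0.24 on array 4, with no value on array 3, and at 36 h it was -0.55, -0.72, 0.30 and -0.59. Arrays 1, 2 and 4 were below 0 at 36 h and array 3 was above. The mean was -0.39 ± 0.47 at 36 h and 0.77 ± 0.43 at 6 h (SD, n = 4 each), and the fitted trend was -1.07 (-1.61 to -0.524), with an adjusted p of 0.9999 in limma.

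The 10 falling clones divided the same way, a division made after their values were seen. In 6 of them HD cells were lower at every time, with median log2(HD/LD) of -0.97, -1.15, -1.28 and -1.87 in time order. In the other 4 the ratio was above 0 at 6 h, and the medians were 0.62, -0.03, 0.23 and -0.39. The first 6 had mean log2 intensities between 8.55 and 11.9, and the 4 between 5.94 and 7.20, against a median of 9.13 over all clones. Those 4 clones were thus dim, and the part of signal strength in their change was not tested. The ratio was lower than at the time before at each step in 3 of the 10 falling clones, against 1.85% of all tested clones. Here too the choice by the fall favours such steps. The 10 came from 10 plates.

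**Figure D2:**
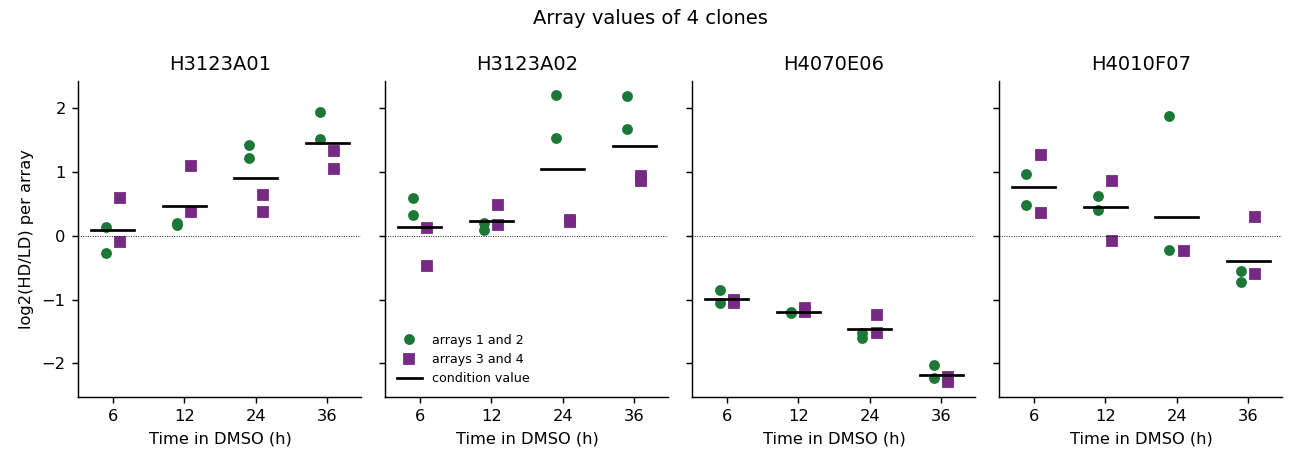
Log2(HD/LD) of the 4 named clones on each of the 4 technical arrays (circles for arrays 1 and 2, squares for arrays 3 and 4) at each hour in DMSO, with a bar at the condition value. H4070E06 runs between -2.30 and -2.03 at 36 h with both pairs together, while H3123A02 has arrays 1 and 2 above arrays 3 and 4 at 24 and 36 h.

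The third question was which line moved. The mean intensity of both channels was scaled between arrays, and each channel was rebuilt from that mean and the ratio. Both channels were fitted together, with a trend for each line. A channel's log2 intensity compares times within a clone and not clones with each other. The ratio is made of these channels, so for clones chosen by their ratio the channel values are a description. In the rising clones the HD channel changed more: relative to 6 h its median over the 10 was 0.10 at 12 h, 0.28 at 24 h and 1.40 at 36 h, and that of the LD channel was -0.09, -0.19 and 0.41. The HD channel was higher at 36 h than at 6 h in 10 of 10 and the LD channel in 8 of 10, whereas 46.5% and 46.4% of all clones were higher. An adjusted p under 0.05 for a rise was reached by 3 of the 10 in HD cells and by none in LD cells. Among all clones, 1.62% rose by this test in HD cells and 2.77% in LD cells.

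H3123A01 had HD log2 intensities of 8.40, 8.78, 9.15 and 10.54 at 6, 12, 24 and 36 h, and LD log2 intensities of 8.31, 8.32, 8.24 and 9.09. Both lines were highest at 36 h. Its trend was 2.03 in HD cells (0.981 to 3.08; limma adjusted p = 0.0312) and 0.705 in LD cells (-0.343 to 1.75; limma adjusted p = 0.431). The HD call was lost in 7 of 12 alternatives, each replicate but the first among them, and the LD trend was -0.124 when channels were not scaled between arrays. H3123A02 had HD log2 intensities of 7.88, 8.42, 8.34 and 9.92 and LD log2 intensities of 7.74, 8.19, 7.29 and 8.51 at these times. Its trends, 1.79 in HD cells (limma adjusted p = 0.0835) and 0.411 in LD cells (limma adjusted p = 0.729; -0.386 with no scaling between arrays), did not pass. Turning arrays 3 and 4 gave H3123A01 a trend of 1.66 in HD cells (limma adjusted p = 0.03059) and 1.07 in LD cells, and H3123A02 a trend of 1.34 in HD cells and 0.86 in LD cells.

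In the falling clones the LD channel changed more after scaling between arrays. The LD median over the 10, relative to 6 h, was 0.21 at 12 h, 0.24 at 24 h and 0.81 at 36 h, against -0.24, -0.20 and -0.21 for the HD channel. Which channel changed more depends on the scaling, since the median trend of all clones was -0.06 in both lines with it and -0.80 without it. The LD channel was higher at 36 h than at 6 h in 10 of 10, where 46.4% of all clones were, and the choice by a falling ratio favours this. A rise in LD cells passed the test in 2 of the 10, and a change in HD cells in none. Among all clones, 2.77% rose by this test in LD cells, and in HD cells 1.62% rose and 2.30% fell. H4070E06 had HD log2 intensities of 10.77, 10.46, 10.77 and 10.70 and LD log2 intensities of 11.77, 11.64, 12.24 and 12.90 in time order. Its HD channel stayed within a narrow band while its LD channel was highest at 36 h. The trend was 0.0653 in HD cells (-0.628 to 0.759, limma adjusted p = 0.935) and 1.23 in LD cells (0.533 to 1.92, limma adjusted p = 0.0335). With no scaling between arrays the trends were -0.718 in HD cells and 0.443 in LD cells, so there the HD channel changed more. The LD call was lost in 9 of 12 alternatives. One of them was turning arrays 3 and 4, with which the trends were close, 0.655 in HD cells and 0.636 in LD cells (limma adjusted p = 0.1455 and 0.164). H4010F07 differed again, with HD log2 intensities of 6.59, 6.11, 6.12 and 5.49 and LD log2 intensities of 5.82, 5.65, 5.83 and 5.88. Its trends were -0.939 in HD cells (limma adjusted p = 0.102) and 0.127 in LD cells (limma adjusted p = 0.859; -0.348 with no scaling between arrays), and -0.447 and -0.365 with arrays 3 and 4 turned.

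**Figure D3:**
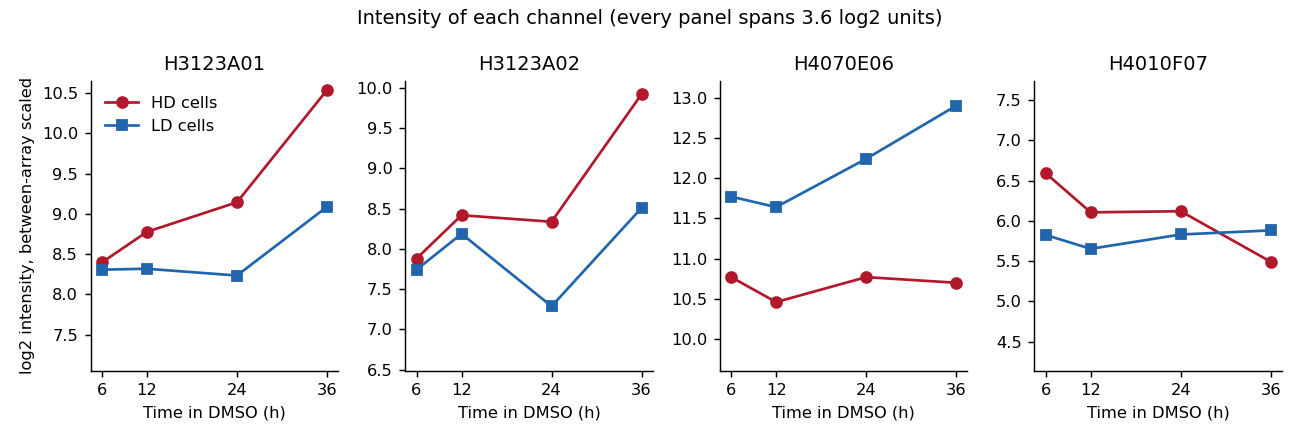
Log2 intensity of HD cells (circles) and LD cells (squares) against hours in DMSO for the 4 named clones, with every panel spanning 3.6 log2 units. Each point is the mean over both array pairs after scaling between arrays, from 4 arrays, or 3 for H4010F07 at 24 h. HD cells end at 10.54 for H3123A01 against 9.09 for LD cells, and for H4070E06 HD cells end at 10.70 against 12.90 for LD cells.

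Across all clones, changes within each channel were called. The fit held 24 values, of 12 conditions and 2 lines, with condition as a random block, so its counts are not set against those of the ratio, which came from 12 values. By the test in limma at an adjusted p under 0.05, 299 clones were higher over the course in HD cells (1.62%) and 426 were lower (2.30%). In LD cells 512 were higher (2.77%) and 655 were lower (3.54%). At an unadjusted p under 0.05 there were 3837 clones in HD cells (20.7%) and 4297 in LD cells (23.2%). Of the clones that rose, 258 rose in both lines, which is 86.3% of the HD list and 50.4% of the LD list. Of those that fell, 376 fell in both, which is 88.3% of the HD list and 57.4% of the LD list, and none was called in opposite directions. Both channels come from the same spots and arrays, so these overlaps are counts and not a test of shared change.

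The sizes were close in both lines. Both channels are built from the same mean intensity and the ratio, and the ratio changed little in most clones. Close sizes follow largely from this and are given as a description. Clones that rose in HD cells had a median trend of 1.20 in HD cells and 1.19 in LD cells, and clones that fell in HD cells had -1.48 in HD cells and -1.49 in LD cells. Relative to 6 h, the risers had HD medians of 0.20 at 12 h, 0.84 at 24 h and 1.13 at 36 h, with LD medians of 0.28, 0.71 and 1.21. The fallers had HD medians of -0.40, -1.22 and -1.44 and LD medians of -0.45, -1.29 and -1.44. The fallers took their largest step between 12 and 24 h in both lines, and the risers did so in HD cells, while in LD cells the risers took theirs after 24 h. No untreated culture was followed beside these cells, so change with DMSO and change with time in culture cannot be told apart. The counts rest on single arrays and times: both directions together, the 725 in HD cells became 43 without replicate 3, 82 without replicate 2 and 1 without 6 h, and the 1167 in LD cells became 246 without replicate 3, 217 without replicate 2 and 12 without 6 h. They also depend on the scaling: the median trend of all clones was -0.06 in both lines after scaling and -0.80 in both without it. Without it, 6 clones rose and 3473 fell in HD cells, and 9 rose and 3822 fell in LD cells. Turning arrays 3 and 4 gave 641 risers (3.47%) and 595 fallers (3.22%) in HD cells, and 526 risers (2.84%) and 556 fallers (3.01%) in LD cells.

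The last question was whether the change of the ratio was particular to DMSO. The 20 clones needed a measurement on the HMBA and TSA arrays, but the values there played no part in their choice. All 10 rising clones were above 0 in both, with a median change between 6 and 36 h of 1.03 in DMSO (0.972 to 1.36), 1.71 in HMBA (1.23 to 2.68) and 1.88 in TSA (1.62 to 2.22). Among all clones, 51.2% were above 0 in HMBA and 49.2% in TSA. H3123A01 changed by 1.36 in DMSO, 2.06 in HMBA and 1.62 in TSA, and H3123A02 by 1.27 in DMSO, 2.68 in HMBA and 1.74 in TSA. On turned arrays the median of these clones was 0.21 in DMSO, 0.12 in HMBA and -0.27 in TSA. The small DMSO value follows largely from the rule that chose them. The DMSO trend was below the mean of the HMBA and TSA trends in 10 of 10, with differences of -1.08 to -0.515 on the log2 scale, where 50.3% of all clones were below. The turned medians above have the other order, with DMSO above HMBA and TSA.

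The falling clones did not all fall in the other drugs. Their median change was -0.97 in DMSO, -0.74 in HMBA and -0.21 in TSA, with 9 of 10 below 0 in HMBA and 6 of 10 in TSA, against 48.8% and 50.8% of all clones. The fall was not seen on turned arrays, where the medians were 0.0659 in DMSO, with 7 of 10 above 0, -0.0186 in HMBA and 0.261 in TSA. For DMSO this follows largely from the rule that chose the clones. The 6 that were lower in HD cells from 6 h on changed by -1.20 to -0.683 in HMBA and by -0.874 to 0.678 in TSA. The 4 that started above 0 changed by -0.222 to 0.410 in HMBA and by -0.379 to 0.907 in TSA, with 3 of the 4 below 0 in HMBA and 2 of the 4 in TSA. At 6 h the median log2(HD/LD) of these 4 was 0.62 in DMSO, 0.04 in HMBA and -0.08 in TSA. A high DMSO value at 6 h helped to choose them, so their difference between drugs is a description. H4070E06 had a log2(HD/LD) of -2.19 at 36 h and -0.99 at 6 h in DMSO, -2.26 and -1.06 in HMBA, and -0.784 and -0.785 in TSA. H4010F07 changed by -1.16 in DMSO, -0.14 in HMBA and -0.03 in TSA, from 6 h values of 0.77, 0.09 and -0.25.

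Tested in limma over 18494 clones, no clone's DMSO trend was above (0%) or below (0%) the mean of the HMBA and TSA trends at an adjusted p under 0.05, and 847 differed at an unadjusted p under 0.05 (4.58%). On turned arrays 0 were above and 1 was below (0.00541%), with 833 at an unadjusted p under 0.05 (4.5%). The differences were -0.611 for H3123A01 (-1.44 to 0.222), -0.893 for H3123A02 (-1.75 to -0.0358), -0.492 for H4070E06 (-1.16 to 0.177) and -0.824 for H4010F07 (-1.49 to -0.16), each with an adjusted p of 0.999 in limma. Such an interval reached 0.58 to each side in the median clone, with no adjustment for the number of clones. Larger differences also went uncalled, among them those of H3123A02 and H4010F07, whose unadjusted intervals left out 0. H4010F07 was chosen for its fall in DMSO, which enters its difference, so its interval is a description and not a test. By count, the ratio moved by 2-fold in fewer clones in DMSO, with 8 higher and 5 lower at 36 h, than in HMBA, with 40 higher (0.231%) and 13 lower (0.0751%), or in TSA, with 150 higher (0.862%) and 4 lower (0.023%). When arrays 3 and 4 were turned, DMSO had 17 and 6, HMBA 13 and 7 and TSA 95 and 54, so the order of DMSO and HMBA turned round.

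**Figure D4:**
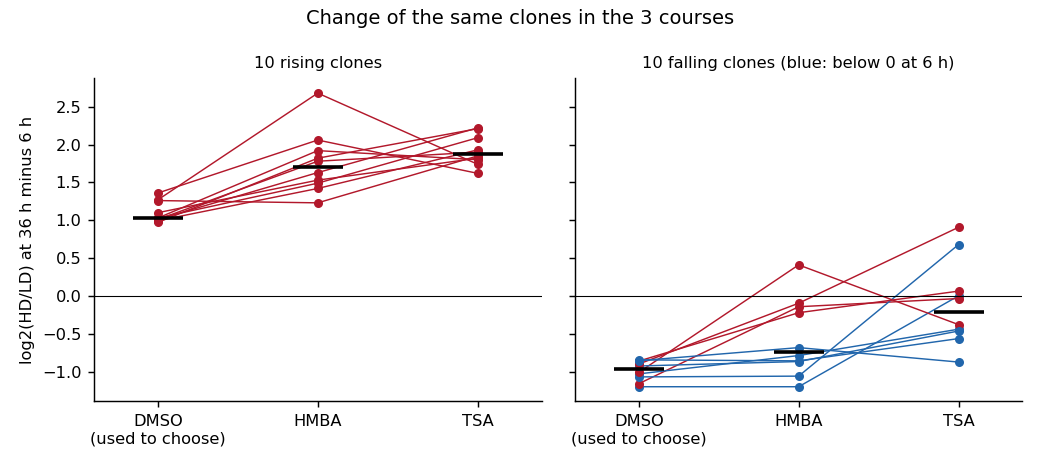
Change of log2(HD/LD), 36 h minus 6 h, in DMSO, HMBA and TSA for the 10 rising clones (left) and the 10 falling clones (right), 1 line per clone and a bar at the median. The rising clones have medians of 1.03, 1.71 and 1.88, and of the falling clones the 6 below 0 at 6 h (blue) are below 0 in HMBA, while the other 4 (red) lie between -0.222 and 0.410 there.

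Agreement between the array pairs limits every one of these changes. Across clones, the change on arrays 1 and 2 and that on arrays 3 and 4 had a correlation of -0.10. Of the 50 clones with the largest increase on arrays 1 and 2, 21 were above 0 on arrays 3 and 4, where 50.9% of all clones were. Of the 50 with the largest decrease, 18 were below 0 there, where 49.1% of all were. The 4 named clones changed the same way on both pairs: H3123A01 by 1.79 and 0.938, H3123A02 by 1.47 and 1.08, H4070E06 by -1.17 and -1.23, and H4010F07 by -1.35 and -0.958. The shared sign is fixed by the rule that chose them, which asked for no overlap between times. None of the 20 was among the 10 largest of its direction with arrays 3 and 4 turned. That too follows largely from the rule, since turning sets the change of each pair against that of the other.

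**Figure D5:**
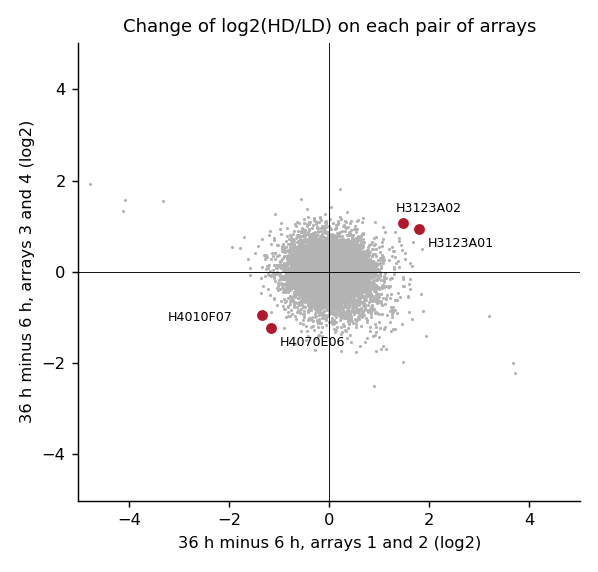
Change of log2(HD/LD), 36 h minus 6 h, on arrays 3 and 4 (vertical) against that on arrays 1 and 2 (horizontal), 1 point per clone, with the 4 named clones in red. The cloud shows no positive slope (correlation -0.10), and the named clones lie at its edge in the quadrants where both pairs change the same way.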

How the data were processed

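Each array was deposited as 2 parts with an intensity per cDNA clone in a target (HD) and a control (LD) column, per the file headers. All deposited intensity values were above 0 and came without a background column; no source used here says how the authors corrected them. The authors' deposited log2 table, whose normalization was not stated, matched the ratios computed here (r 0.993 to 0.999, slopes 0.983 to 0.996, column medians -0.017 to 0.02) and served as an alternative. RNA was labelled by indirect cDNA labelling with Cy3 and Cy5, per the labels' protocols.

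Log2(HD/LD) was normalized by loess (span 0.3) within each part of an array, in limma 3.58.1 under R 4.3.3. Technical arrays were averaged, and 12 condition values were fitted with drug and drug-specific linear hours (6 residual degrees of freedom). Trends are slopes times 30 h. Channels were then quantile normalized between arrays on mean intensity and fitted with condition as a random block (correlation 0.723). Scripts were tested on simulated data. Array precision is limited by their number.

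Direction was kept as target over control, per the file headers. The 1st percentile of intensity was higher in the HD column on 8 of 8 DMSO arrays numbered 1 or 2. It was higher in the LD column on 8 of 8 numbered 3 or 4. Both a dye swap and an exchange of columns would give this, so it does not settle the direction. Same-numbered arrays deviated together (r 0.416 to 0.642), but so did arrays of the same pair, and each array correlated best with its own number in 33.3%, so the number did not pair the arrays beyond their pair and stays out of the fit.

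Members, lists and tests were chosen with earlier results of these data known. Named clones are the first 2 each of the 10 largest rises and falls from 6 to 36 h in DMSO, among tested clones with all 8 arrays and no overlap. No clone was tied to a gene, so planned gene and marker lists were not applied and no filter on background was possible.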

Additional observations from a re-analysis of the deposited data

Results flagged for a closer look

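Of 15 groups of 4 arrays examined for the 4 named clones, 1 held an array far from the others by Dixon's test, where chance gives about 1 in 20 (0.75 here). It was H4010F07 in DMSO at 36 h, with a log2(HD/LD) of 0.301 on array 3 while arrays 1, 2 and 4 lay between -0.72 and -0.546. Without replicate 3 and in the other left-out arrays with a value, the DMSO trend of this clone kept its sign, between -1.55 and -0.776.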

How the results depend on the processing

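The count of clones with a DMSO ratio trend, 0 in the main fit, was 2 with the 4 DMSO conditions alone (H3123A01 and H3123A02, limma adjusted p = 0.0296 and 0.026), 3 with the 16 arrays as units and the replicate number as a block (H4070E06 and 2 of the 10 rising clones), the same 3 without that block, and 2 with arrays 3 and 4 turned. The replicate block thus changed no call among fits on arrays. The count against the mean of HMBA and TSA was 1 with arrays turned. No left-out array or time gave a call in either. The HD channel count, 725, was 1236 with arrays turned, 1221 with an offset of 50, 1 without 6 h, 136 without 12 h, 389 without 24 h, 3479 with loess alone, and 43 to 489 without 1 replicate. The LD channel count, 1167, was 12 without 6 h, 515 without 12 h, 556 without 36 h, 3831 with loess alone, and 217 to 832 without 1 replicate. The 13 clones at least 2-fold changed became 23 with arrays turned, 6 with the offset and 14 to 27 without 1 replicate. With arrays turned, the ratio trends were 0.593 for H3123A01, 0.482 for H3123A02, 0.0196 for H4070E06 and -0.0828 for H4010F07. The HD trend of H4070E06 was 0.655 with arrays turned, -0.127 to 0.258 without 1 replicate, -0.0677 without 12 h and -0.718 with loess alone. The LD trend of H3123A01 was -0.135 without 36 h and -0.124 with loess alone, and that of H3123A02 was -0.971 and -0.386. The LD trend of H4010F07 was -0.365 with arrays turned, -0.0498 to 0.351 without 1 replicate and -0.348 with loess alone. The cause of these shifts was not tested, apart from the shift of all clones under loess alone. H4010F07 had no value without replicate 4, in the authors' log2 table or after the lowest 25% of intensities were left out. H3123A02 had none without replicate 2. One clone of cells and 1 pair of RNA extracts a time set the limit of every count.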

Other observations

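A few clones had changes on arrays 1 and 2 far beyond the rest. A threshold of 2.5 on the log2 scale, chosen after the values were seen, was passed by 7 clones, and all 7 changed the opposite way on arrays 3 and 4. Of these, 3 rose by 3.19 to 3.72 on arrays 1 and 2 and had changes of -2.21 to -0.965 on arrays 3 and 4. The other 4 had changes of -4.78 to -3.32 on arrays 1 and 2 and of 1.33 to 1.92 on arrays 3 and 4. The 2 clones called with arrays 3 and 4 turned were among them.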
